A study of Oryza sativa with 45 samples.

Results

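The genes described here are the 200 whose share of the sequenced reads differed least between 16 groups of rice seedlings growing under water. A gene's count in a library was divided by the library's total count and expressed as counts per 1000000 (CPM), and the CPM were averaged over the libraries of each group. Of the 35677 genes counted, 5706 had a mean of 20 CPM or more in every group, and these are called eligible. They were ranked by the ratio of the highest to the lowest of the 16 group means, and the 200 genes with the smallest ratio were taken as members, which is 3.51% of the eligible genes. The group means of all 45 libraries chose the members, so their flat profile is the rule itself and is given as a description.

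Seeds of 4 near-isogenic rice lines were sown in soil under water and stayed submerged until harvest, so every group shares the flooding and none was grown in air. IR64(AG1), labelled IR64-AG1, carries the AG1 locus of the landrace Khao Hlan On with the gene TPP7, which IR64 lacks through a deletion. IR64(SUB1), labelled IR64-SUB1, carries SUB1A-1 of the landrace FR13A, and IR64(AG1,SUB1), labelled IR64-AG1SUB1, carries both loci. IR64, the recipient cultivar, has neither of them and holds the SUB1A-2 allele. Each of the 3 introgressed genotypes is represented by a single line. The methods describe pooled embryo, coleoptile and shoot tissue of 45 seedlings, harvested at 2, 4, 8 or 14 d. The labels name the tissue embryo for every library of 2 d and coleoptile for every library of the later days, so tissue label and age cannot be told apart between 2 d and the rest. There are 3 libraries in 13 groups and 2 in the others, which are the 2 d and 4 d groups of IR64(AG1,SUB1) and the 8 d group of IR64(SUB1). The methods of the study speak of triplicate biological experiments, while the labels number the libraries only, so p-values measure the spread between these libraries.

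Total counts per library lay between 12256409 and 24870831. The SUB1A entry of the count table, which does not tell the alleles apart, never exceeded 2 counts before 8 d. It reached 118 to 191 CPM in the 6 libraries of lines with SUB1 on the last day, against 10.6 to 26.1 CPM in the 6 without. The libraries of 8 d were likewise separate. Sets of marker genes were found by their descriptions. These were at hand for 3800 of the 35677 genes, so each set may hold only part of its family. The summed level of 4 genes described as chlorophyll a/b binding proteins had medians of 6.02, 3.24, 2823 and 4982 CPM at 2, 4, 8 and 14 d. That of 3 alpha-amylase genes, enzymes that break down seed starch, had medians of 109, 278, 131 and 13.5 CPM on the same days, and that of 2 oleosins of seed oil bodies 47.6, 4.65, 1.83 and 0.26 CPM. In 4 late embryogenesis abundant genes, a family known from maturing seeds and from drying tissue, the summed level had medians of 5.03, 3.72, 7.43 and 51.1 CPM. For 11 expansins the summed level had medians of 38.8, 146, 161 and 106 CPM. The medians of oleosins, alpha-amylases and expansins were thus lower at 14 d than at 4 d, and those of the other 2 sets higher. The expansin libraries of these days overlapped. The members were chosen for staying level over the same days. In such bulk tissue, fewer cells of a type and less RNA per cell cannot be told apart.

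A reference gene is one whose transcript is taken to be present in the same amount in all samples, so that other transcripts can be expressed relative to it. Transcripts of ubiquitin, actin, tubulin, elongation factor 1 alpha and cytosolic glyceraldehyde-3-phosphate dehydrogenase are commonly used in plants because every cell needs their products. In germinating seeds the choice is harder than in most tissues, since stored reserves, stored mRNA and cell types all change at once. What is held constant also depends on the denominator: a level in CPM is a share of the library and not an amount per cell.

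Among the eligible genes the ratio of highest to lowest group mean ranged between 1.10 and 330, with a median of 1.91. The middle of the distribution lay between 1.59, the lower quartile, and 2.60, the upper quartile. Members had ratios of 1.10 to 1.32 and a median of 1.27, and 64 of them were under 1.25. A ratio under 1.5 was met by 928 eligible genes (16.3%) and a ratio under 2 by 3118 (54.6%), so the members are the low end of a continuous range. No gap separates them: the gene at rank 200, OS02G0690700, had a ratio of 1.3246 and the next one, OS02G0779200, had 1.3254. The other 4 members closest to the limit, OS10G0477800, OS06G0538200, OS06G0639100 and OS10G0442532, had ratios from 1.3225 to 1.3245. The other 4 genes just outside, OS05G0430300, OS08G0282400, OS06G0535300 and OS08G0107500, had ratios from 1.3256 to 1.3266.

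**Figure D1:**
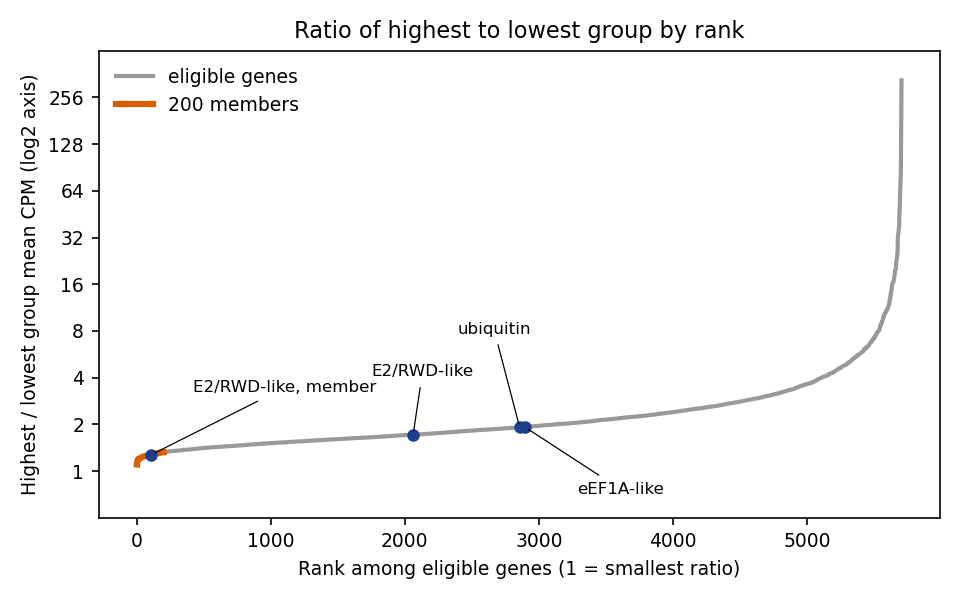
Ratio of the highest to the lowest of the 16 group means (log2 axis) against rank for the 5706 eligible genes, with the 200 members in orange and 4 genes of families commonly used as references as blue points. Members run from 1.10 to 1.32 without a step at the limit, and the ubiquitin gene lies at 1.91, at the median of the eligible genes.

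The gene of smallest ratio was OS03G0263800, for which no description was at hand. The 11 libraries of 2 d held 46.6 to 60.3 CPM (median 52.2) and the 11 of 4 d held 47.8 to 62.4 CPM (median 53.6). The 11 of 8 d held 47.7 to 59.1 CPM (median 52.3) and the 12 of 14 d held 47.4 to 56.5 CPM (median 52.5). The days overlapped completely and their medians lay within 2 CPM of each other. IR64(AG1,SUB1) had the highest group mean, 54.7 ± 7.95 CPM at 2 d (SD, n = 2), with libraries at 49.1 and 60.3 CPM. Its lowest was 49.6 ± 2.80 CPM (SD, n = 3) in IR64(SUB1) at 2 d, with libraries from 46.6 to 52.1 CPM. These 2 extreme groups overlapped, so the ratio of 1.10 is within the spread of replicate libraries.

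OS05G0478200, at rank 2, had medians of 37.5, 38.1, 38.5 and 37.9 CPM at 2, 4, 8 and 14 d, and its 45 libraries lay between 33.2 and 44.7 CPM. OS04G0614000, at rank 3 with a ratio of 1.15, had medians of 71.0, 67.8, 68.1 and 66.9 CPM, and its libraries lay between 59.4 and 83.1 CPM. For both genes the highest single library was 1.35 and 1.401 times the lowest. The count table gives identifiers only, and these genes had no description either. OS09G0567400 and OS03G0801600 followed with ratios of 1.15, and OS03G0801600 had the narrowest range of single libraries of all members, 157 to 204 CPM or 1.30-fold. Ranks 6 to 10 were OS09G0558300, OS08G0243900, OS02G0272600, OS07G0618500 and OS02G0192400, with ratios from 1.16 to 1.19. Among the 10 genes of smallest ratio, the libraries of the highest and the lowest group overlapped in 4.

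**Figure D2:**
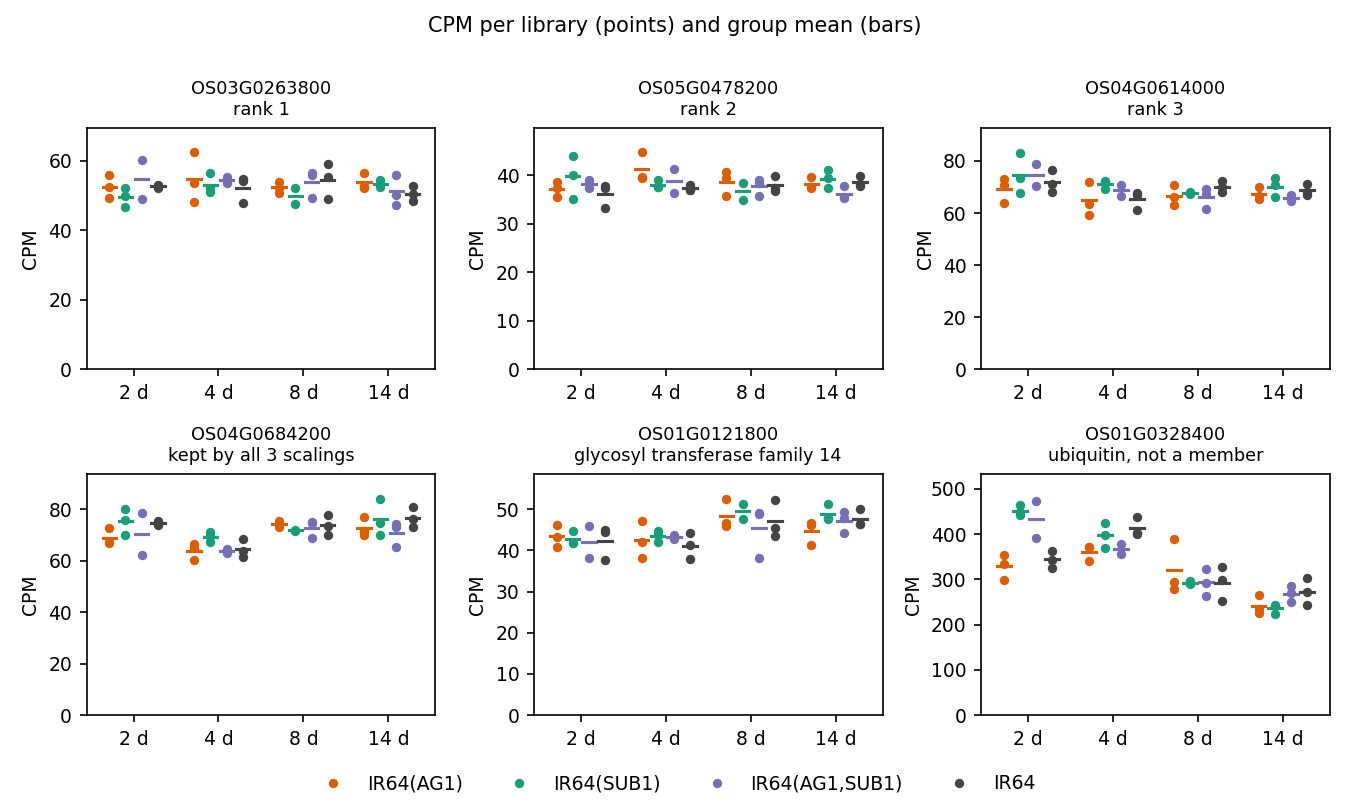
CPM of 6 genes in each of the 45 libraries (points) and the mean of each group (bars), by day and genotype, with the axis starting at 0. The 3 genes of smallest ratio and 2 members kept under every library scaling stay level over the days, while the ubiquitin gene OS01G0328400 has its lowest libraries at 14 d.

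The members were not drawn from one level of abundance. Their mean over groups ranged between 22.4 and 1986 CPM with a median of 66.3 CPM, beside a median of 65.8 CPM over the eligible genes. CPM is not corrected for transcript length, so levels of different genes are not compared here. The member with the most reads was OS06G0681400, with medians of 1967, 2203, 1954 and 1816 CPM at 2, 4, 8 and 14 d and single libraries from 1561 to 2291 CPM. Its ratio was 1.29, with the highest mean in IR64(AG1,SUB1) at 4 d and the lowest in IR64 at 14 d. The next 4 by reads were OS07G0614500, OS09G0485900, OS11G0104900 and OS06G0639100, with means of 524, 467, 409 and 396 CPM and ratios from 1.26 to 1.32. No description was at hand for these 5. The smallest count of any member in any library was 252. In the group with a member's smallest summed count, the counting error was between 0.424 and 4.24% (median 2.37%), which covers counting error only. All 200 together took 1.79 to 2.01% of the counts of a library.

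The pooled standard deviation of log2 CPM within groups had a median of 0.11 over the members and 0.13 over the eligible genes. The standard deviation between the 16 group means, on the same log2 scale, had a median of 0.10 over the members and 0.29 over the eligible genes. It exceeded the spread of single libraries within groups in 84 of the 200 members (42.0%), against 94.4% of the eligible genes, although a mean of 2 or 3 libraries varies less than 1 library. The libraries of the highest and lowest groups overlapped in 12 members, 6.00% of the set, and in 17 of the eligible genes (0.298%). OS02G0100700 had the smallest spread within groups, 0.05, and OS09G0298700 the largest, 0.26 on the log2 scale, with single libraries between 18.0 and 42.2 CPM. The highest single library was 1.30 to 2.35 times the lowest over the members (median 1.52), against a median of 2.30 over the eligible genes.

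What little variation the members had was still arranged by day more than by genotype. The sum of squares between group means, on the log2 scale, was split into a part shared by the 4 genotypes on a day, a part shared by the 4 days of a genotype and the rest. Day took a median of 55.2% of it in the members and 89.3% in the eligible genes. Genotype took 12.5% in the members and 3.20% in the eligible genes, and the rest took 26.4% and 6.60%. These are shares of a total that was smaller in the members, and the spread of replicate libraries enters each share. The larger genotype share of the members is therefore not read as a larger difference between genotypes. The highest group mean fell on 2 d in 86 members (43.0%, against 39.0% of the eligible genes) and on 8 d in 53 (26.5%, against 23.7%). The lowest fell on 14 d in 62 members (31.0%, against 39.8%). Single groups stood out too: IR64(SUB1) at 2 d held the highest mean in 36 members and IR64(AG1,SUB1) at 2 d the lowest in 25. These shares were close to those of the eligible genes, 16.3% for IR64(SUB1) at 2 d and 14.3% for IR64(AG1,SUB1) at 2 d, beside 18.0% and 12.5% of the members.

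Taken along the days within a genotype, the highest of the 4 group means was a median of 1.16 to 1.17 times the lowest in the members, depending on the genotype, against 1.62 to 1.67 times in the eligible genes. Taken across the genotypes on a day, the values were closer. Members had a median of 1.15 at 2 d and of 1.10 on each later day, and the eligible genes had a median of 1.23 at 2 d and of 1.13 to 1.16 on the later days. The 4 genotypes therefore differed little in most eligible genes, and the rule selected mainly against change over the days. Within a library, a median of 99.0% of the members lay less than 1.25-fold from their own mean, a share that the rule largely sets. The lowest shares were 88.5% in replicate 3 of IR64 at 8 d and 89.5% in replicate 2 of IR64(AG1,SUB1) at 2 d.

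Membership depended on the denominator more than on anything else examined. When the library sizes were scaled by TMM, the trimmed mean of M-values of edgeR, which centres the log ratios of the bulk of genes, only 14 of the 200 were again among the 200 smallest ratios. With the size factors of DESeq2, 52 were. On TMM sizes, 125 of the 200 members were within the first 1000 ranks of 5725 eligible genes. The TMM factors lay between 0.84 and 0.96 in the libraries of 2 and 4 d and between 1.05 and 1.19 in those of 8 and 14 d, so the earlier and later days did not overlap. The libraries also differed in makeup. The 100 genes with the most counts took a median of 25.6, 29.4, 17.7 and 14.2% of the counts at 2, 4, 8 and 14 d, and the number of genes at 1 CPM or more had medians of 18419, 18467, 21166 and 21344. The part of these differences in the choice of the members was not tested.

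On column totals the members' median level relative to their own mean was 0.01, -0.02, 0.03 and -0.03 at 2, 4, 8 and 14 d on the log2 scale. On TMM library sizes the same genes stood at 0.12, 0.21, -0.15 and -0.18, so that they were higher at 2 and 4 d than at 8 and 14 d. DESeq2's size factors gave 0.06, 0.14, -0.12 and -0.09. The eligible genes as a whole moved in the same sense, with medians of 0.06, -0.06, 0.08 and -0.08 on column totals and 0.16, 0.16, -0.10 and -0.23 on TMM sizes. On TMM sizes the ratio of highest to lowest group had a median of 1.49 in the members and a highest value of 1.79. OS03G0263800, first on column totals, was at rank 760 with a ratio of 1.49 on TMM sizes, and 6 members no longer had all group means at 20 CPM.

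**Figure D3:**
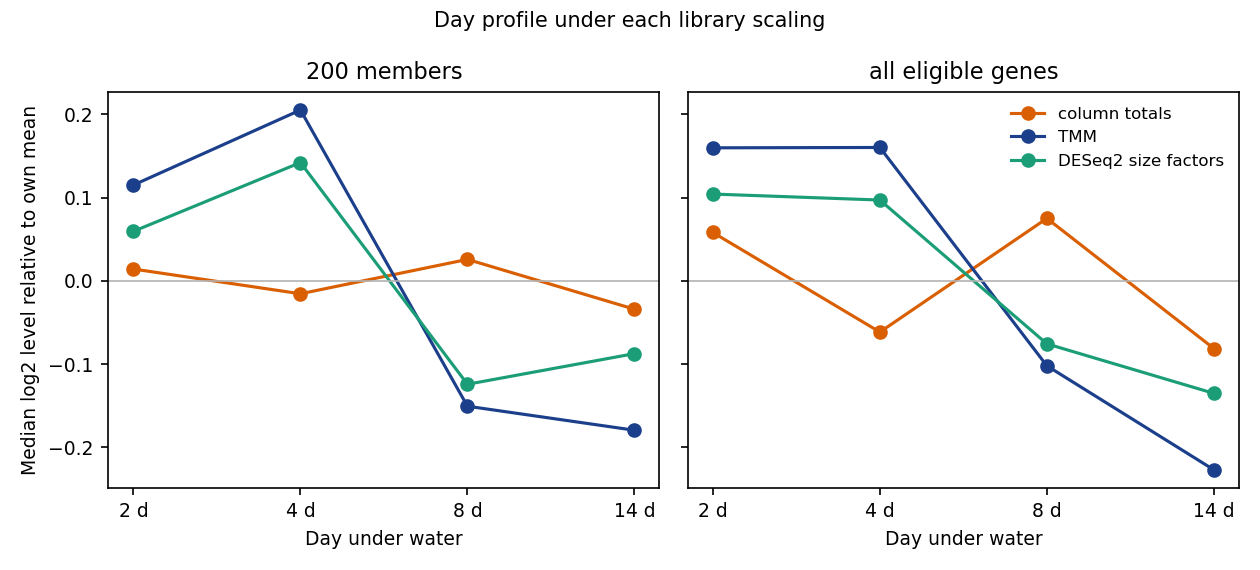
Median log2 level of the 200 members (left) and of the 5706 eligible genes (right) on each day relative to each gene's own mean over the 16 groups, under 3 ways of scaling the libraries. The members lie between -0.03 and 0.03 on column totals and between -0.18 and 0.21 on TMM library sizes.

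The same shift appears in the differential expression fit, which used TMM library sizes (edgeR quasi-likelihood test, 26180 genes, Benjamini-Hochberg FDR). Since the rule used these group means, the calls are a description. At an FDR under 0.05 and more than a 2-fold change, none of the 200 members was called in any of 12 contrasts of successive days, where 60.9% of all genes were called in at least 1, nor in any of 12 contrasts of a line with IR64, where 10.5% were. DESeq2 also called 0 in both. Of the 5706 eligible genes, a closer comparison than all genes, 99 to 832 were called past 2-fold in a single contrast of days. In a single contrast with IR64, 2 to 32 were. Without the fold limit, 192 members were called in at least 1 contrast of days, beside 90.0% of all genes, and 197 had an unadjusted p under 0.05. The day contrasts of the members gave log2 fold changes between -0.79 and 0.53.

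Most of those calls were at 8 d against 4 d. At 8 d, 174 members were lower in IR64(AG1) (59.8% of all genes called in either direction), 148 in IR64(SUB1) (56.9%), 143 in IR64(AG1,SUB1) (51.5%) and 153 in IR64 (54.5%), and none was higher. The members' median log2 fold change was -0.39, -0.36, -0.34 and -0.34 in these genotypes, beside medians of 0.07, 0.05, 0.09 and 0.09 over all genes tested. The eligible genes, a closer comparison, were also lower at 8 d on TMM sizes. Their median level relative to their own mean went from 0.16 at 4 d to -0.10 at 8 d, and that of the members from 0.21 to -0.15. In each genotype a larger share of the eligible genes than of all genes was called between these days. At 4 d against 2 d, 15, 28, 24 and 39 members were called in the same order, with 22.1, 30.8, 24.7 and 26.4% of all genes. At 14 d against 8 d, 22, 7, 20 and 32 were called, with 44.7, 35.4, 42.1 and 51.0% of all genes. With column totals in place of TMM in the same fit, 117 members rather than 192 were called over the 12 contrasts.

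Between each line and IR64 on the same day, 16 members were called without the fold limit in at least 1 of 12 contrasts, beside 23.9% of all genes, and 87 had an unadjusted p under 0.05. Of the 16, 13 were called at 2 d. The share of eligible genes called in a single contrast with IR64 ran from 0.193 to 14.8%. Log2 fold changes of members against IR64 lay between -0.41 and 0.39. At 2 d OS02G0205300, picked out for its size, had the top value in that range, 0.39 ± 0.08 (SE) for IR64(SUB1) against IR64. The count of 16 fell to 8 without replicate 3 of IR64 at 2 d.

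The 14 genes that were members under column totals, TMM and DESeq2 scaling alike held ratios of at most 1.33 under each of them. They were singled out after their values were seen. OS04G0684200 had ratios of 1.203 on column totals, 1.30 on TMM sizes and 1.198 on DESeq2 size factors. Its CPM had medians of 73.7, 65.1, 73.3 and 73.7 at 2, 4, 8 and 14 d, with single libraries from 60.03 to 84.0 CPM, and its median was lowest at 4 d. OS03G0243300, with 140 to 191 CPM in single libraries, had the smallest spread within groups of the 14, 0.06 on the log2 scale, and ratios of 1.27, 1.28 and 1.25. Its medians of 152, 149, 168 and 178 CPM were higher at 8 and 14 d than at 2 and 4 d. OS06G0167100 had ratios of 1.27, 1.29 and 1.15, and OS05G0463600 had ratios of 1.32, 1.23 and 1.203. The other unnamed ones were OS01G0673600, OS05G0149600, OS06G0602800, OS10G0565600, OS07G0568000, OS08G0117400, OS09G0306800 and OS10G0378400. Within groups, the spread of the 14 on the log2 scale ran from 0.06 to 0.18.

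2 of these 14 genes had a description. OS01G0121800 is described as a glycosyl transferase of family 14 similar to xylosyltransferase 1, an enzyme type that adds sugars to proteins or polysaccharides. It had ratios of 1.204 on column totals, 1.24 on TMM sizes and 1.18 on DESeq2 size factors, with medians of 43.3, 42.7, 47.6 and 47.2 CPM at 2, 4, 8 and 14 d and single libraries from 37.5 to 52.5 CPM. OS01G0195500 has a SUI1 domain, that of the translation initiation factor which helps the ribosome recognise the start codon. Its ratios were 1.31, 1.32 and 1.18, and its medians were 59.7, 56.5, 68.2 and 60.1 CPM. Its libraries were most spread at 8 d, from 51.0 to 82.9 CPM.

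Functions could be read for a small part of the set only. Descriptions were taken from the annotation columns of the study's datasets, which covered 14 of the 200 members, so a count of functions over all members is void. In 1 run of 1941 consecutive identifiers at the start of chromosome 1 every gene had a description, whatever its expression. This run holds 308 eligible genes, of which 14 were members (4.55%, against 3.51% of all eligible genes), and these are the 14 described members. One of them, OS01G0299500, is a conserved hypothetical protein, and 54 of the 308 eligible genes (17.5%) are described as hypothetical or unknown. The other 13 carry descriptions of different kinds, and none of the word lists for function classes matched more than 2 of them.

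Of the members described with RNA or nucleic acids, OS01G0111200 is related to the like-Sm proteins, which form rings on RNA in splicing and mRNA decay, and had medians of 144, 144, 142 and 122 CPM at 2, 4, 8 and 14 d. Its 3 lowest libraries were replicate 1 of 8 d in IR64(AG1), IR64(AG1,SUB1) and IR64, at 98.7, 102 and 90.1 CPM, while the others lay between 112 and 158 CPM, and its ratio was 1.32. OS01G0280000 is similar to histone mRNA exonuclease 1, an enzyme known in animals for trimming histone mRNA, and had a ratio of 1.30 with its highest mean in IR64 at 4 d and its lowest in IR64(AG1,SUB1) at 14 d. OS01G0173100, an Alba family protein that binds DNA or RNA, had medians of 37.0, 36.9, 37.9 and 34.8 CPM and a ratio of 1.30. OS01G0238600, with the OB-fold found in proteins that bind nucleic acids, had medians of 39.4, 36.1, 40.5 and 42.8 CPM and a ratio of 1.30. Words for RNA splicing and processing were matched by 2 members and by 10 of the 308 eligible genes (3.25%), whose median ratio was 1.53.

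In protein turnover, OS01G0499300 belongs to the Mov34/MPN/PAD-1 family, whose domain occurs in subunits of the proteasome lid, the COP9 signalosome and translation initiation factor 3. It had medians of 53.2, 47.9, 49.9 and 53.8 CPM and a ratio of 1.25. OS01G0125900 has the domain of ubiquitin-conjugating enzymes, which pass ubiquitin to target proteins, and of the related RWD proteins. Its 45 libraries lay between 79.3 and 118 CPM, with medians of 106, 98.7, 95.6 and 96.2 CPM, and its ratio was 1.28. The highest group of OS01G0125900 was IR64(SUB1) at 2 d and the lowest IR64(SUB1) at 14 d. Ubiquitin and related modifiers were matched by 1 member and by 20 of the 308 eligible genes (6.49%), with a median ratio of 1.72. Translation was matched by 1 member, OS01G0195500, and by 17 eligible genes (5.52%), with a median ratio of 1.99.

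The remaining described members sat in membranes, signalling or neither. OS01G0351300 is similar to Sec15, a subunit of the exocyst that tethers secretory vesicles to the plasma membrane. Its medians were 77.6, 71.2, 70.5 and 81.4 CPM and its ratio 1.26. OS01G0182200 is similar to the maize SIP1-2, of the small basic class of aquaporin-like membrane proteins. Its medians of 60.8, 60.5, 72.5 and 62.6 CPM were highest at 8 d, where the libraries lay between 64.3 and 81.2 CPM, and its ratio was 1.30. OS01G0186700, similar to the protein kinase GhCLK1, was likewise highest at 8 d, with a median of 112 CPM beside 101, 97.2 and 98.4 CPM at 2, 4 and 14 d. OS01G0179300, similar to a BRI1-KD interacting protein, had medians of 125, 130, 147 and 135 CPM. OS01G0526200, of the TRAUB family, had the widest libraries of the 14, from 20.01 to 37.3 CPM. No member of the run matched the words for mitochondrial and respiratory genes (6 eligible genes), chloroplast and photosynthesis (7), transcription factors (13), chaperones (3), nuclear transport (3) or the proteasome (2). With 14 members, classes of this size would hold few or none at the overall share.

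**Figure D4:**
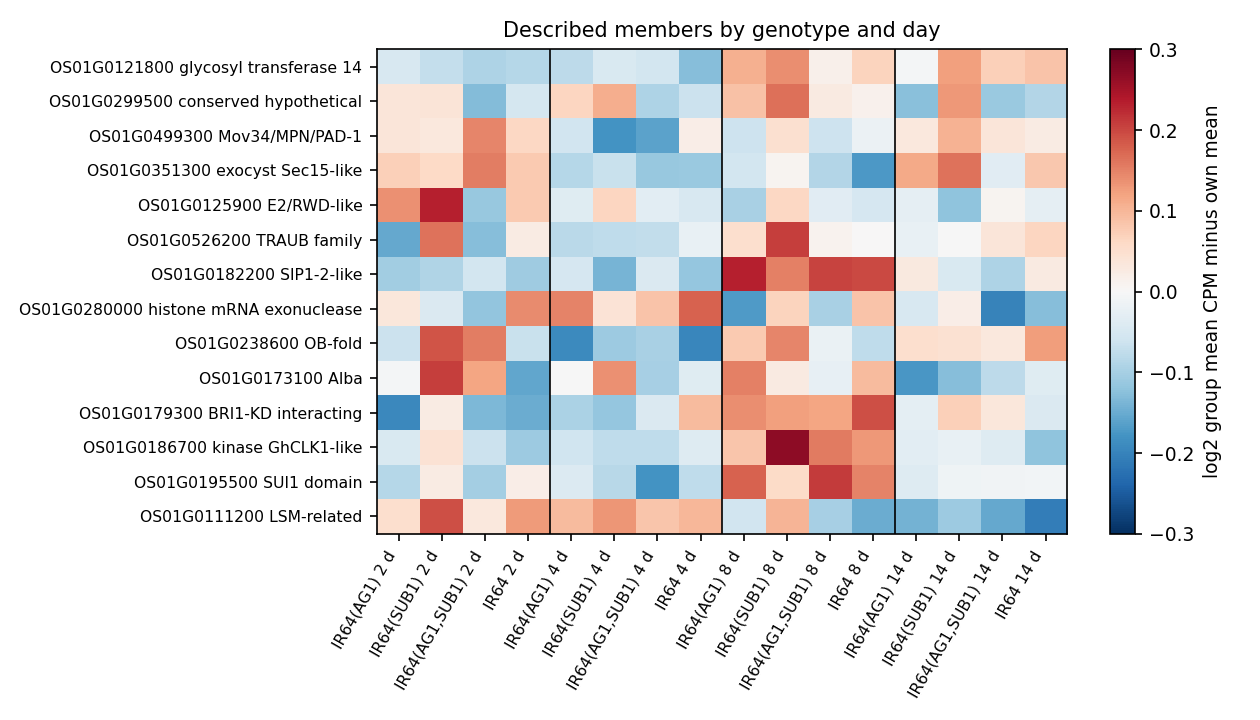
Group mean CPM of the 14 described members relative to each gene's own mean over the 16 groups (log2 scale, colour from -0.3 to 0.3), in columns by day and, within a day, by genotype. OS01G0182200, OS01G0186700 and OS01G0195500 are above their own mean in all 4 genotypes at 8 d, and OS01G0111200 is below its own mean in all 4 genotypes at 14 d.

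Families commonly used as references had 13 genes in the same run, matched by words for ubiquitin, ubiquitin-conjugating enzymes, elongation factor 1 alpha, tubulin, actin, cyclophilin and profilin, some of which are only related to the gene in use. Of these, 4 were eligible and 1, OS01G0125900, was a member. The ubiquitin gene OS01G0328400 ranked 2857 with a ratio of 1.91. It had medians of 363, 379, 294 and 247 CPM at 2, 4, 8 and 14 d, with 340 to 439 CPM in the libraries of 4 d and 222 to 302 CPM in those of 14 d, so these days did not overlap. OS01G0116600 ranked 2895 with a ratio of 1.92. It is described as an elongation factor 1 alpha-like protein in negative regulation of cell death and defense response, so it need not stand for the usual reference gene. Its medians were 48.4, 75.7, 50.1 and 44.0 CPM, with the highest libraries at 4 d. OS01G0232500, a second gene with the ubiquitin-conjugating or RWD domain, ranked 2062 with a ratio of 1.72 and medians of 37.0, 29.3, 25.5 and 25.1 CPM. The beta tubulin gene OS01G0282800 was not eligible, with group means from 18.5 to 43.5 CPM. Reads of near-identical copies, as among ubiquitin or tubulin genes, may have been split among these copies when reads were counted, so the level of any 1 copy is uncertain. On TMM sizes the ratio of OS01G0328400 was 2.37 and that of OS01G0125900 1.57.

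The only reading of stability that the rule did not fix comes from days or genotypes left out of the choice. All left-out readings use CPM on column totals and hold for that denominator only. The rule was applied to 3 of the 4 days. The 200 genes chosen were read on the fourth relative to their mean over the 12 groups used. On 2 d, 77.0% of the 200 lay less than 1.25-fold from that mean, against 48.8% of the eligible genes. The shares were 72.0% against 53.5% on 4 d, 82.5% against 67.2% on 8 d and 69.5% against 40.1% on 14 d. Genes chosen without 4 d were mostly lower on it, with a median of -0.17 on the log2 scale, and so were those chosen without 14 d, at -0.19. Genes chosen without 2 d or 8 d were mostly higher on them, at 0.11 and 0.12. Eligible genes had medians of the same signs, 0.05, -0.11, 0.10 and -0.16 at 2, 4, 8 and 14 d. Between 83 and 114 of the 200 genes chosen without a day belonged to the 200 chosen on all of them.

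A single day could still overturn a flat profile. OS08G0278900 was among the 200 genes chosen without 4 d, with group means of 142 to 173 CPM on the other days. Its 4 group means at 4 d were between 11.2 and 15.8 CPM, with 15.8 CPM for IR64(AG1,SUB1) and 12.2 CPM for IR64. It was 3.59 lower at 4 d on the log2 scale, the largest departure among the genes chosen with a day or genotype left out, and was picked out for that.

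Leaving out a genotype had far less effect. All 200 genes chosen on 3 genotypes lay less than 1.25-fold from their mean in each left-out genotype, but so did 96.9 to 99.6% of the eligible genes. Within the left-out genotype the highest of its 4 days was a median of 1.18, 1.21, 1.204 and 1.17 times the lowest in the chosen genes for IR64(AG1), IR64(SUB1), IR64(AG1,SUB1) and IR64, against 1.63, 1.68, 1.65 and 1.63 times in the eligible genes. The choice was also made without 1 library at a time. In that library 78.0 to 100% of the genes (median 97.5%) lay less than 1.25-fold from their mean. Among the eligible genes the share was 47.4 to 76.5% (median 64.3%). The other libraries of the same group still took part in the choice, so these shares are partly set by the rule. The members kept numbered 157 to 199 of 200, and 157 was reached without replicate 3 of IR64(AG1,SUB1) at 2 d, a group of 2 libraries.

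**Figure D5:**
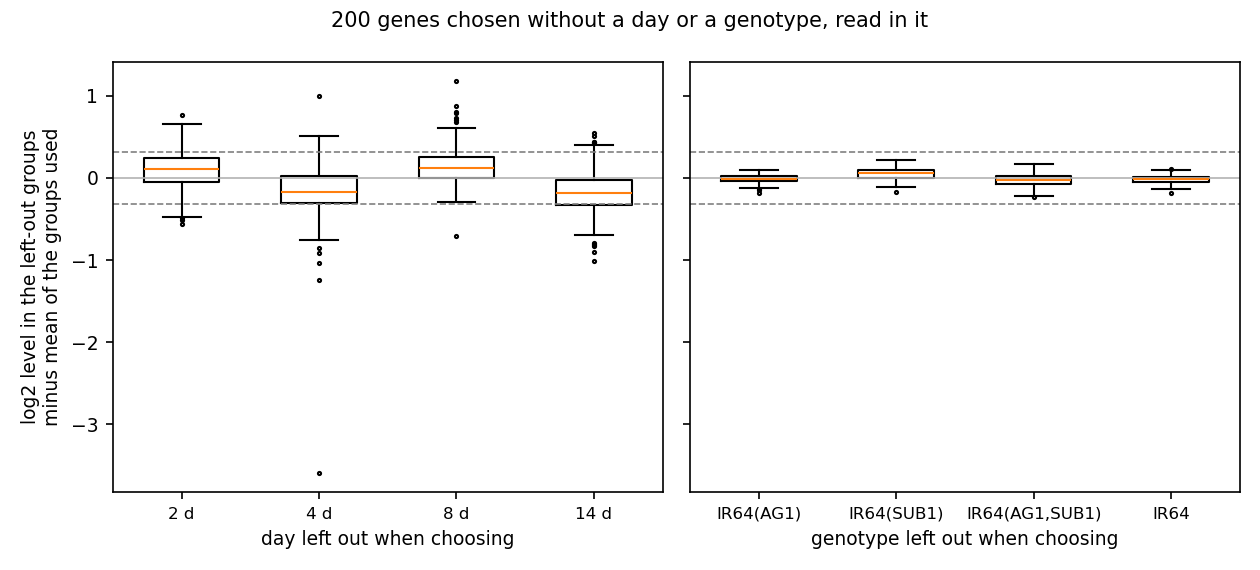
Level of the 200 genes chosen without a day (left) or without a genotype (right), read in the groups left out, as log2 difference from their mean over the groups used. Boxes show the quartiles with the median in orange, whiskers reach 1.5 times the box, points lie beyond, and dashed lines mark 1.25-fold; 69.5 to 82.5% of genes lie within them for a left-out day and 100% for a left-out genotype.

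Members came from all 12 chromosomes as given by their identifiers. Chromosome 1 held 39 of them, 4.83% of its eligible genes, chromosome 2 held 33 (4.53%), and chromosome 3, with the most eligible genes, held 21 (2.36%). In the order of identifiers, 7 pairs of members had no other eligible gene between them.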

How the data were processed

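RNA from pooled embryo, coleoptile and shoot tissue was sequenced in 45 libraries of 16 genotype-by-day groups. The authors trimmed paired reads, aligned them with TopHat2 2.0.14 and Bowtie2 2.2.5 to the Nipponbare genome IRGSP-1.0 with SUB1A-1 added, and counted exonic reads of each gene with the union setting; the deposited values are these raw counts, unnormalized. Here, CPM were computed from column totals, so they sum to a fixed total in each library and depend on all other genes. Library totals were 12256409 to 24870831, and intervals of counts cover counting error only.

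The members, the word lists and the tests were chosen with earlier results of these data known. Named genes were the 10 members of lowest ratio, the 5 with most reads, those on both sides of the limit, the lowest in each function class, genes of conventional reference families and the extremes of spread; the other described members were added after their values were seen, and further genes are marked in the text. edgeR 4.0.16 in R 4.3.3 (filterByExpr, 26180 genes, TMM, 1 coefficient per group, glmQLFit and glmQLFTest) was tested on simulated data. DESeq2 1.42.0 was an alternative. Deviations from the group means of same-numbered libraries correlated over 0.1 in 11 of 64 pairs (median 0.02), all within 8 or 14 d, and in all 3 pairs of IR64(AG1) with IR64 at 8 d (0.129 to 0.257) and at 14 d (0.169 to 0.231); in the other 22 contrasts the numbers were not taken as pairs. Group means, ratios and figures were made in Python 3.11.15. Gene descriptions came from annotation columns of the study's supplementary datasets, whose values were not used; the RefSeq table matched 0 of the members, so no gene lengths, promoters or proteins are given. Of 9 listed reference genes, 1 had a fitting description; the others, and the gene used to normalize qRT-PCR, are not analysed here. Alternatives were other scalings, minimum levels and measures of spread, left-out libraries, days and genotypes, and other fits.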

Additional observations from a re-analysis of the deposited data

How the results depend on the processing

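Of the 200 members, 14 were again chosen on TMM library sizes and 52 on DESeq2 size factors. With other criteria, 116 were again chosen at a minimum of 50 CPM, 126 by the ratio of single libraries, 83 without 2 d, 88 without 4 d, 114 without 8 d and 88 without 14 d. With single libraries left out, 157 to 199 were kept, and the other alternatives kept 137 to 189. The cause was not tested.

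Counts of called members past the 2-fold limit were 0 in every fit and with every library left out. The members' ratios were at most 1.32 on column totals and 1.79 on TMM sizes, so the rule largely set this outcome. Without that limit, the 192 calls over days became 108 with the steps of the paper (5 counts added, likelihood ratio test) and 117 on column totals without TMM, and were 190 to 198 with single libraries left out. The 16 calls against IR64 became 8 with no filter on low counts, 0 with the steps of the paper (37 at an unadjusted p under 0.05), 9 on column totals and 9 with only the 2 groups compared in the fit, and were 8 to 21 with single libraries left out, 8 without replicate 3 of IR64 at 2 d. The cause was not tested. With a replicate block, the counts over days and against IR64 were 192 and 18. For IR64(AG1) against IR64, where same-numbered libraries deviated together, 1 member was called at 8 d and 0 at 14 d with that block as without it. In a fit of the 2 groups alone, 0 were called at 8 d and 0 at 14 d, with the block (chosen after seeing the data; 4 and 5 at an unadjusted p under 0.05) or without it.

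On TMM sizes, 11 genes of the described run were among the 200 of smallest ratio, 2 of them shared with the 14 described members. Of these 11, the words matched 1 for RNA splicing and processing, 0 for other RNA-binding, 2 for translation, 0 for vesicle traffic and 1 for transcription factors, and the ratios were 2.39 for OS01G0116600, 1.57 for OS01G0125900 and 2.37 for OS01G0328400. OS01G0232500 gave no value there, since not all its group means reached 20 CPM. Promoter motifs were not run, for want of promoter sequences. Groups of 2 or 3 libraries are too small for a search for outlying libraries within them.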
